A study of Mus musculus with 6 samples.

Results

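Genes of the interstitial matrix and of the fibroblasts that make it were described in lineage-labeled alveolar type II (AT2) cells of the mouse lung, with and without a constitutively active BMP receptor. The 45 genes were taken by symbol from the 24421 genes of the deposited count table, from a list drawn up by function, and all 45 were found. They comprise fibrillar collagens, collagen VI, other collagens, elastic fibre proteins, crosslinking enzymes, matricellular proteins, proteoglycans, collagen processing and turnover proteins, and the receptors *Pdgfra* and *Pdgfrb*. The control mice (AT2CTRL) had the genotype *Sftpc-CreERT2/+; R26-tdTomato/+*, and the AT2CAB mice had *Sftpc-CreERT2/+; R26-tdTomato/R26-caBmpr1a*. The *R26-caBmpr1a* allele encodes BMPR1a, a receptor for BMP ligands, in a form that signals without ligand. Both groups therefore carried the tamoxifen-inducible Cre, expressed from the surfactant protein C gene and so active in AT2 cells, and the tdTomato label. Cells were sorted on the label, so a cell that recombined tdTomato but not caBmpr1a would also have been collected as AT2CAB. There were 3 libraries of poly(A) RNA in each group. By the labels the mice of AT2CTRL replicate 2 and AT2CAB replicate 1 were 16 weeks of age, and the age was 12 weeks for the other 4.

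In the alveolar wall, fibroblasts and related mesenchymal cells secrete most of the interstitial matrix. Fibrillar collagens give it tensile strength, elastin laid down on a scaffold of fibrillin microfibrils gives it recoil, and lysyl oxidases crosslink both. Epithelial cells rest on a separate sheet, the basement membrane, and in the intact lung AT2 cells contribute little fibrillar collagen. PDGFRα and PDGFRβ are the receptors used to mark alveolar fibroblasts and pericytes. In bulk RNA of sorted cells, a change in the number of cells of one type and a change in their RNA per cell cannot be told apart.

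The libraries held between 21554249 and 28440227 counts. The sorted cells had the markers of AT2 cells: the summed level of 9 AT2 markers was 115794 to 131522 CPM in AT2CTRL and 99441 to 110646 CPM in AT2CAB, where CPM is the count scaled to a common library total by TMM. None of the 9 passed the test, and 5 of them had lower values in all 3 AT2CAB libraries than in any AT2CTRL library (55.6%, against 10.1% of all tested genes). As a check of the allele, 5 of the 10 tested BMP target genes (*Atoh8*, *Id1*, *Id3*, *Smad6* and *Smad9*) passed the test and rose in AT2CAB. Reads of 4 Y-linked genes were present in AT2CTRL replicate 1 (176 CPM) and AT2CAB replicate 3 (146 CPM) and at 0 in the other 4 libraries. These 2 libraries lay apart from the rest on the first principal component of all genes, which held 49.9% of the variance, at -24.6 and -59.9 against 5.69 to 39.9. For several members the value from the other 4 libraries is given beside the result.

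Of the 45 genes, 44 passed the filter on low counts, and *Timp1*, an inhibitor of matrix metalloproteinases, did not, with 0.359, 0 and 0.228 CPM in AT2CTRL against 0.138, 0.543 and 1.30 CPM in AT2CAB. No member was called at an adjusted p under 0.05 with a change of over 2-fold by edgeR's quasi-likelihood test, the standard used for calls below, in either direction. The background was 0.227% of 16723 tested genes called higher and 0.0120% called lower. At an unadjusted p under 0.05, 21 members were higher and 2 were lower in AT2CAB, against 4.62% and 5.05% of all tested genes. By DESeq2, 4 members were called higher and 0 lower, against 0.870% and 0.183% of the 13672 genes with an adjusted p, and by limma-voom none was called, against 0.149% and 0.00598%. Without a fold threshold, 8 members passed by DESeq2 as higher and 2 as lower, against 1.45% and 0.644% of genes. With the presence of Y-linked reads as a covariate in edgeR, 9 passed as higher and 2 as lower, against 1.27% and 1.26%. The median log2 fold change of the 44 was 0.58 (range -0.99 to 1.32), against -0.0096 over all tested genes, and 36 of the 44 lay above 0 where 48.8% of all tested genes did.

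In 20 of the 44 members every AT2CAB library was higher than every AT2CTRL library (45.5%, against 7.0% of all tested genes). In 2 members, *Col6a1* and *Col6a2*, every AT2CAB library was lower (4.55%, against 10.1% of all). With scaling by library size only, which moves the median of all genes to 0.12, the members without overlap were 25 higher and 2 lower, against 12.6% and 3.91% of all tested genes. In the 4 libraries without Y-linked reads, where 2 are set against 2, they were 24 higher and 5 lower, against 19.5% and 26.5% of all tested genes, and the median log2 fold change was 0.49. AT2CTRL replicate 1, with Y-linked reads, was the lowest of the 6 libraries for 23 of the 44 members. AT2CAB replicate 2 was the highest for 20 members, AT2CAB replicate 3 for 16 and AT2CAB replicate 1 for none. These counts were not made over all tested genes, so whether this order is particular to the members was not tested.

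**Figure D1:**
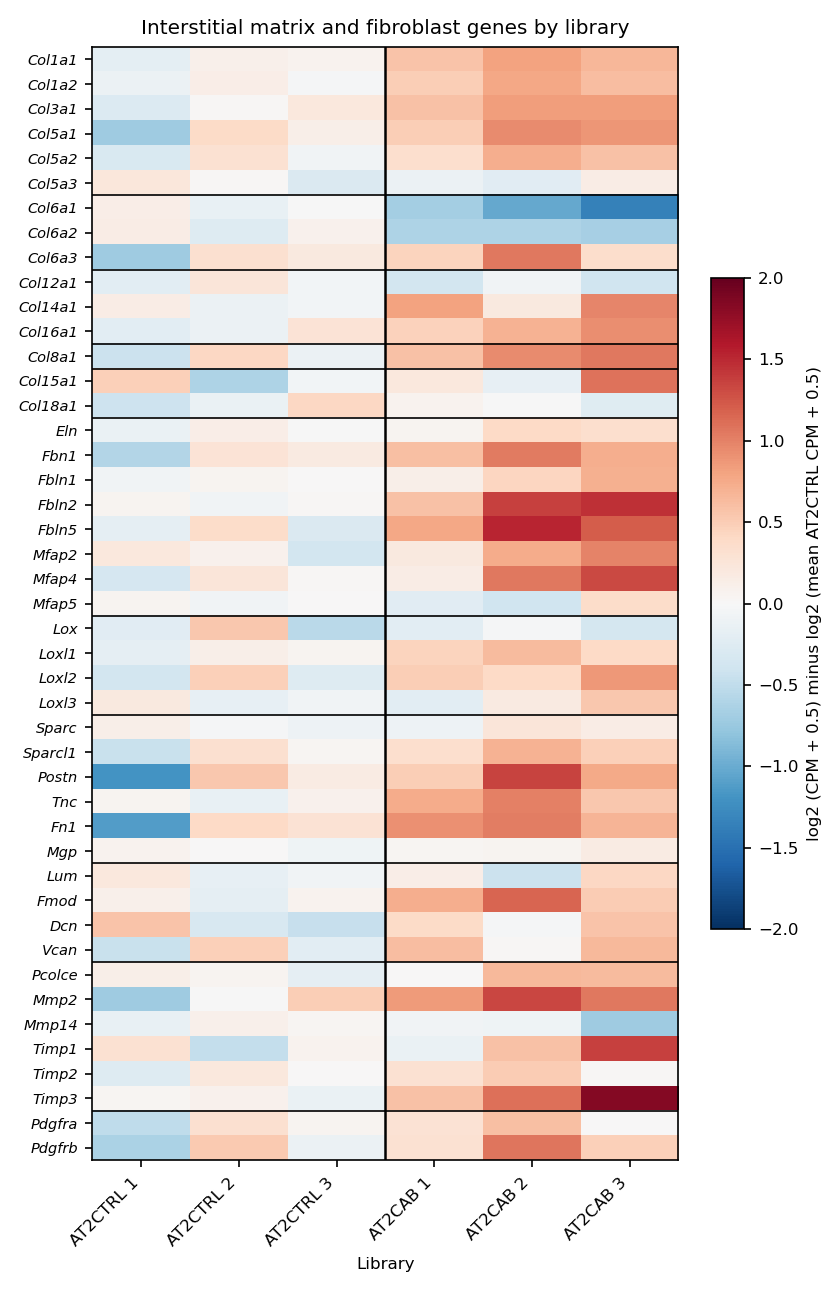
Level of each of the 45 genes (rows, grouped by role and separated by lines) in each of the 6 libraries (columns), as log2 of CPM plus 0.5 relative to the mean of the AT2CTRL libraries. Red is above and blue below that mean. Most rows turn red in the 3 AT2CAB columns, whereas *Col6a1* and *Col6a2* turn blue.

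**Figure D2:**
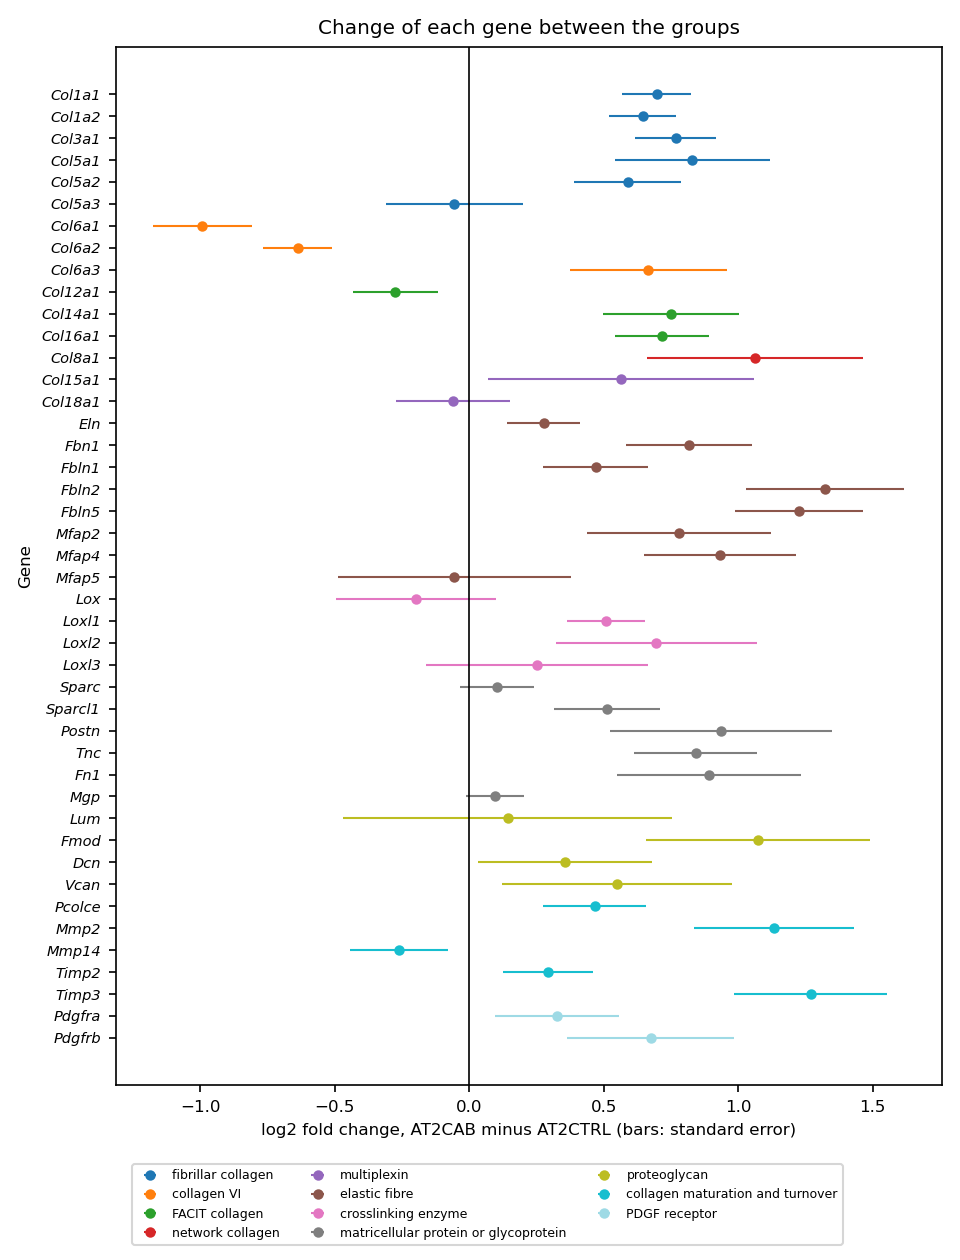
Log2 fold change of AT2CAB over AT2CTRL from edgeR for the 44 tested genes (horizontal axis, points), with its standard error (bars) and colored by role. Points lie between -0.99 and 1.32, 36 of them to the right of 0.

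The fibrillar collagens I, III and V form the main fibres of the interstitium. Of their 6 measured genes, 5 had higher values in every AT2CAB library (83.3%, against 7.0% of all tested genes), with *Col5a3* near 0. *Col1a1*, the first chain of collagen I, had 25.7, 31.8 and 30.9 CPM in the AT2CTRL libraries and 44.2, 51.8 and 47.3 CPM in the AT2CAB libraries. The groups did not overlap, and their means were 29.5 ± 3.28 CPM (SD, n = 3) in AT2CTRL and 47.8 ± 3.82 CPM (SD, n = 3) in AT2CAB (log2 fold change 0.70, standard error 0.13, adjusted p = 0.114 by edgeR). *Col1a2*, the partner chain, had 33.0, 39.5 and 35.4 CPM in AT2CTRL against 51.0, 61.9 and 55.7 CPM in AT2CAB (log2 fold change 0.64, standard error 0.12, adjusted p = 0.127). *Col3a1*, which encodes collagen III, copolymerized with collagen I in distensible tissues, had 32.6, 40.2 and 46.1 CPM in AT2CTRL against 59.6, 71.4 and 71.4 CPM in AT2CAB (log2 fold change 0.77, standard error 0.15, adjusted p = 0.132). In all 3 genes the 3 AT2CAB libraries were close together and each stood above the highest control. *Col5a1* and *Col5a2*, chains of the collagen V that nucleates fibrils, had a lower level. *Col5a1* had 4.48, 10.03 and 8.34 CPM in AT2CTRL against 10.9, 15.2 and 14.5 CPM in AT2CAB, and *Col5a2* had 7.85, 12.2 and 9.33 CPM in AT2CTRL against 12.6, 16.6 and 15.0 CPM in AT2CAB. In both the groups did not overlap. Their log2 fold changes were 0.83 (standard error 0.29, adjusted p = 0.416 by edgeR) and 0.59 (standard error 0.20, adjusted p = 0.416), and AT2CTRL replicate 1 was the lowest library for both. *Col5a3* had a log2 fold change of -0.055, whose sign depended on the scaling.

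The collagen I and III genes missed the threshold in the main test and passed it in others. With the presence of Y-linked reads as a covariate the adjusted p by edgeR was 0.0166 for *Col1a1*, 0.0238 for *Col1a2* and 0.0259 for *Col3a1*, and by DESeq2 it was 0.00521, 0.00805 and 0.00640. Over the 16 alternatives the adjusted p ran from 0.00521 to 0.605 for *Col1a1*, from 0.00805 to 0.626 for *Col1a2* and from 0.00640 to 0.626 for *Col3a1*. In the 4 libraries without Y-linked reads the log2 fold changes were 0.65, 0.63 and 0.64, with adjusted p of 0.0586, 0.0817 and 0.0813 by edgeR. None of these 3 changes reached 2-fold in any of these fits. *Col1a1* alone also passed with scaling by library size only.

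**Figure D3:**
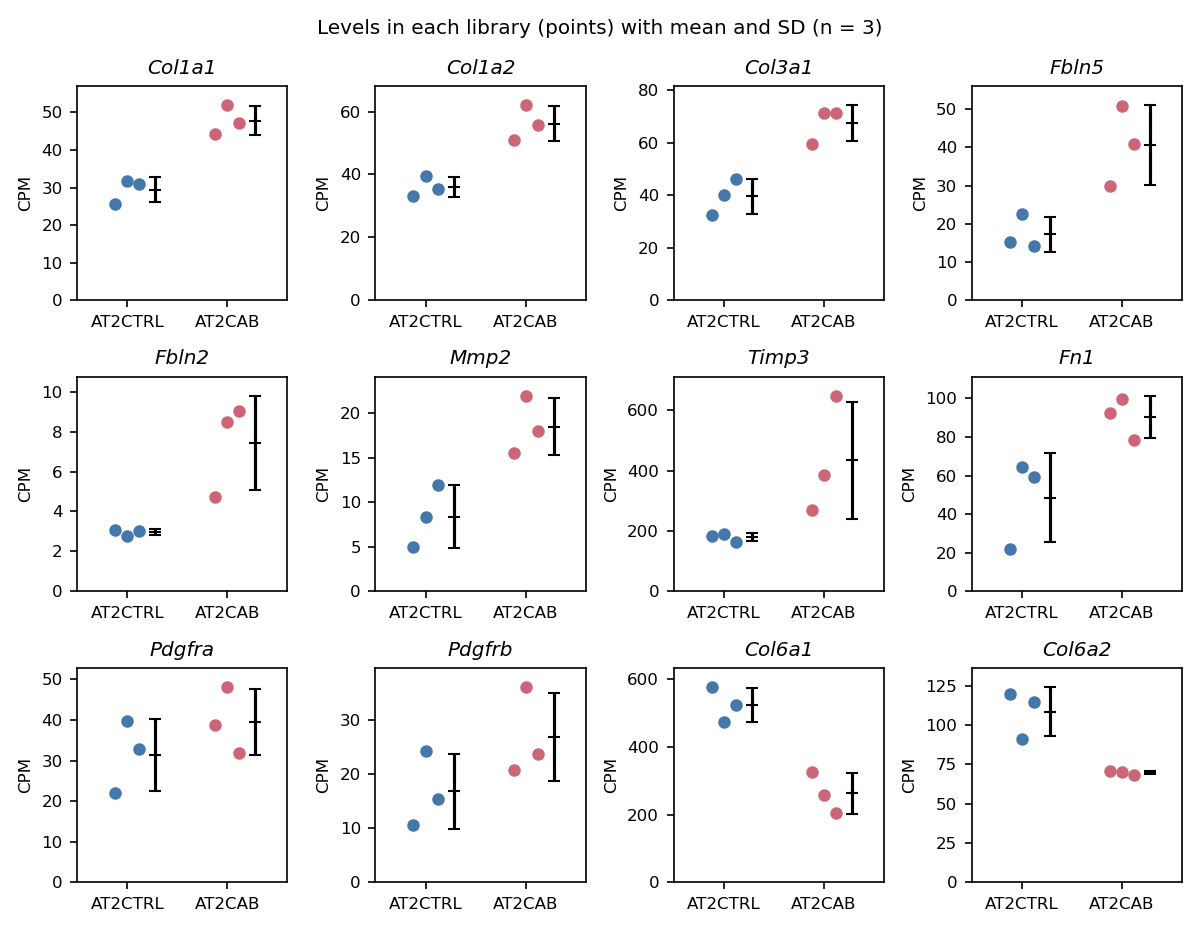
Levels in CPM (vertical axes, linear from 0) of 12 genes in the 3 AT2CTRL libraries (blue points) and the 3 AT2CAB libraries (red points), with the mean and SD of each group (black, n = 3). The groups are separate for *Col1a1*, *Col1a2*, *Col3a1*, *Fbln5*, *Fbln2*, *Mmp2*, *Timp3* and *Fn1*, overlap for *Pdgfra* and *Pdgfrb*, and are separate in the other direction for *Col6a1* and *Col6a2*.

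Collagen VI is a heterotrimer of 3 chains that forms beaded filaments around cells, and its chains differed in direction. *Col6a1*, at chr10:76708792-76726044 of mm10, had 575, 474 and 523 CPM in the AT2CTRL libraries and 326, 258 and 206 CPM in the AT2CAB libraries, with means of 524 ± 50.4 CPM (SD, n = 3) in AT2CTRL and 263 ± 60.3 CPM (SD, n = 3) in AT2CAB. *Col6a2* lies on the same strand of chromosome 10, with 85387 bases between the genes, and had 119.9, 91.0 and 115 CPM in AT2CTRL against 70.5, 70.3 and 68.4 CPM in AT2CAB. Both had their 3 AT2CAB values below all controls (log2 fold change -0.99, standard error 0.18, adjusted p = 0.115 for *Col6a1* and log2 fold change -0.64, standard error 0.13, adjusted p = 0.135 for *Col6a2* by edgeR). *Col6a3*, on chromosome 1, lay in the opposite direction, with 12.0, 25.2 and 23.0 CPM in AT2CTRL against 27.5, 42.4 and 25.8 CPM in AT2CAB (log2 fold change 0.67, standard error 0.29, adjusted p = 0.520). Its groups were separated by a narrow gap, and AT2CTRL replicate 1 was again the lowest library.

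Per exon length, *Col6a1* was among the most abundant of all 45 genes, at a mean of 215 TPM, a level scaled by exon length and by library, over the 6 libraries, with 52.4 TPM for *Col6a2* and 5.43 TPM for *Col6a3*. The ratio of *Col6a1* to *Col6a3* per length was 131, 51.4 and 61.9 in AT2CTRL and 32.4, 16.6 and 21.8 in AT2CAB, without overlap. The ratio of *Col6a1* to *Col6a2* was 4.50, 4.89 and 4.28 in AT2CTRL and 4.34, 3.44 and 2.82 in AT2CAB, and there the groups overlapped. By contrast the ratio of *Col1a1* to *Col1a2* was 0.853, 0.882 and 0.957 in AT2CTRL and 0.950, 0.916 and 0.930 in AT2CAB, within 0.85 to 0.96 in every library. With Y-linked reads as a covariate *Col6a1* passed at an adjusted p of 0.0208 and a log2 fold change of -1.01, past 2-fold, and *Col6a2* passed at 0.0268. DESeq2 gave adjusted p of 0.000120 and 0.00675, and the 4 libraries without Y-linked reads gave 0.0483 and 0.113 by edgeR. Over the 16 alternatives the adjusted p ran from 0.000120 to 0.580 for *Col6a1* and from 0.00675 to 0.626 for *Col6a2*.

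**Figure D4:**
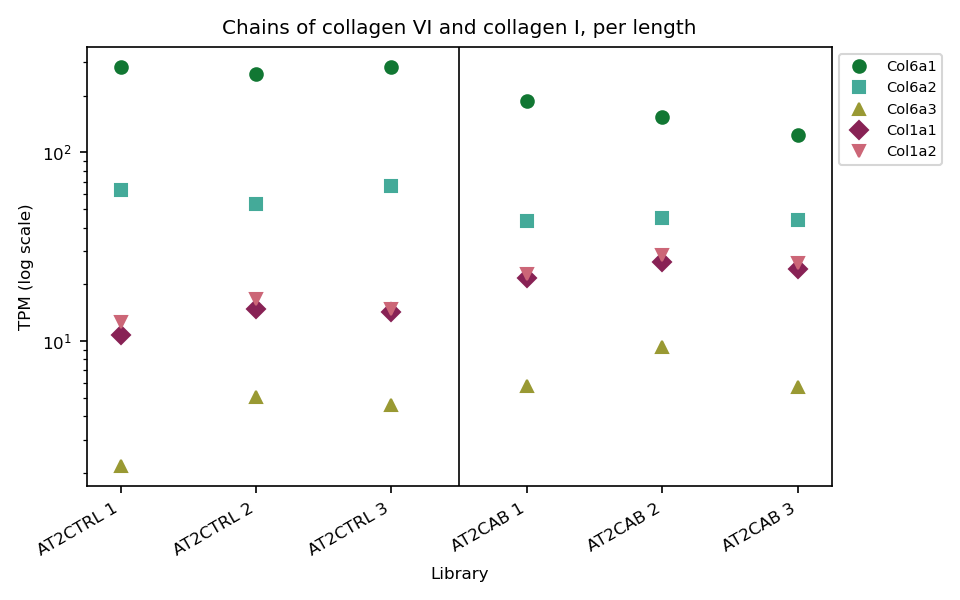
Level per exon length (TPM, log axis) of the 3 collagen VI chains and the 2 collagen I chains in each library (horizontal axis, AT2CTRL left and AT2CAB right of the line). *Col6a1* and *Col6a2* are lower on the right and *Col6a3*, *Col1a1* and *Col1a2* are higher, while the collagen I chains stay side by side.

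The stretches upstream of the start sites are shown for the collagen VI chains, which differed in direction, and for *Col3a1* and *Fbln5*, which were among the genes with higher values. The sequences are those of RefSeq on GRCm38.p6, 5′ to 3′ on the strand of the gene, up to 250 bases before the start and cut back where another transcript of the same gene already covers the bases. Capitals mark the letters of 3 motifs on either strand: CAGAC, the SMAD box, GGCGCC, a GC-rich SMAD element, and TATAAA, the TATA box. None of the 3 motifs contains another.
*Col6a1* (chr10:76726169-76726294, minus strand): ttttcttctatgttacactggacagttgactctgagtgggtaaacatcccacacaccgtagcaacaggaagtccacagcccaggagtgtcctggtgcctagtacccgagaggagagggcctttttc
*Col6a2* (chr10:76623631-76623880, minus strand): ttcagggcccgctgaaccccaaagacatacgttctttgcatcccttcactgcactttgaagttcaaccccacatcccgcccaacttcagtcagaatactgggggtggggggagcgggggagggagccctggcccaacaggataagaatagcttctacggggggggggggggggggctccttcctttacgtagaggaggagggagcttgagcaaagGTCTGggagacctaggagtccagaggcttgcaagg
*Col6a3* (chr1:90843972-90844221, minus strand): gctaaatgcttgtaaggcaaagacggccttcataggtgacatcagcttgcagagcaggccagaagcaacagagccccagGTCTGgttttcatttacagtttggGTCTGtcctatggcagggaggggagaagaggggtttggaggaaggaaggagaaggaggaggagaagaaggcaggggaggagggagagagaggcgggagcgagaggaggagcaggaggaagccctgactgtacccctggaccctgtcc
*Col3a1* (chr1:45311288-45311537, plus strand): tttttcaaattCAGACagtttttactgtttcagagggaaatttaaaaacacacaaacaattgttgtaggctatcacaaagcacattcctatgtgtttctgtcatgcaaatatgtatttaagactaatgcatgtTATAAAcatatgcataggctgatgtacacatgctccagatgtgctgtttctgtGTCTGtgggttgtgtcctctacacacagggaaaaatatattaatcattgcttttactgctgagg
*Fbln5* (chr12:101819120-101819369, minus strand): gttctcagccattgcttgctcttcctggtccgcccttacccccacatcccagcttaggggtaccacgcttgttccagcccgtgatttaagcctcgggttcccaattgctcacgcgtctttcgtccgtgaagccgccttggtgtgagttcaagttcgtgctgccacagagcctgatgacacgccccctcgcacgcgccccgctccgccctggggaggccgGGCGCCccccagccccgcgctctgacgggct
The stretch shown for *Col6a2* held 1 CAGAC match, that of *Col6a3* held 2, and that of *Col3a1* held 2 beside 1 TATAAA match. The *Fbln5* stretch held 1 GGCGCC match, and the *Col6a1* stretch, of 126 bases, held none of the 3. RefSeq windows were matched for 27 of the 45 genes, which had 34 windows. Over whole windows of 250 bases CAGAC occurred in 16 of these 34 windows and in 42.2% of all 32851 windows, GGCGCC in 4 of 34 and in 9.59%, and TATAAA in 4 of 34 and in 12.4%. A match describes letters only.

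Among the collagens that decorate fibrils or form networks, *Col14a1* and *Col16a1*, both fibril-associated (FACIT) collagens, and *Col8a1*, a network-forming collagen of vessel walls, had higher values in every AT2CAB library. *Col16a1* had 24.0, 25.5 and 33.8 CPM in AT2CTRL against 38.6, 45.1 and 53.4 CPM in AT2CAB (log2 fold change 0.72, standard error 0.17, adjusted p = 0.230 by edgeR). It passed by DESeq2 (adjusted p = 0.0364, range over the 16 alternatives 0.0364 to 0.760), and in the 4 libraries without Y-linked reads its log2 fold change was 0.53 (adjusted p = 0.200). *Col14a1* had 5.56, 4.50 and 4.76 CPM in AT2CTRL against 8.99, 5.74 and 10.2 CPM in AT2CAB. *Col8a1* had 1.08, 2.31 and 1.45 CPM in AT2CTRL against 2.66, 3.57 and 3.87 CPM in AT2CAB. Both were at low levels, with log2 fold changes of 0.75 (adjusted p = 0.411) and 1.06 (adjusted p = 0.453) by edgeR. In those 4 libraries the log2 fold change of *Col8a1* was 0.77 (adjusted p = 0.461). The groups overlapped for the remaining 3: the FACIT gene *Col12a1* (log2 fold change -0.28) and the multiplexins *Col15a1* (0.56) and *Col18a1* (-0.06, a sign that depended on the scaling).

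The elastic fibre genes encode elastin, its fibrillin microfibrils and the proteins that link them. Of the 8, 4 had higher values in every AT2CAB library (50%, against 7.0% of all tested genes). The largest log2 fold change of all members was that of *Fbln2*. *Fbln5*, a fibulin needed to assemble elastin onto microfibrils, had 15.3, 22.5 and 14.2 CPM in the AT2CTRL libraries and 29.8, 50.7 and 40.9 CPM in the AT2CAB libraries, with means of 17.3 ± 4.55 CPM (SD, n = 3) in AT2CTRL and 40.5 ± 10.5 CPM (SD, n = 3) in AT2CAB (log2 fold change 1.23, standard error 0.24, adjusted p = 0.129 by edgeR). *Fbln2*, a fibulin of vessel walls and microfibrils, had 3.09, 2.79 and 3.01 CPM in AT2CTRL against 4.72, 8.46 and 9.05 CPM in AT2CAB (log2 fold change 1.32, standard error 0.29, adjusted p = 0.186). Both reached over 2-fold without passing the adjusted threshold. *Fbn1*, fibrillin-1, the main microfibril protein, had 11.4, 21.1 and 19.9 CPM in AT2CTRL against 26.9, 36.5 and 29.2 CPM in AT2CAB (log2 fold change 0.82, standard error 0.24, adjusted p = 0.326). *Fbln1*, a fibulin of elastic fibres and basement membranes, had 7.13, 7.80 and 7.50 CPM in AT2CTRL against 8.16, 10.3 and 12.6 CPM in AT2CAB (log2 fold change 0.47, standard error 0.20, adjusted p = 0.499). In *Fbn1* the control of replicate 1 was far below the other 2 controls, whereas for *Fbln1* the controls were tight.

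*Eln*, elastin itself, was not separated between groups (log2 fold change 0.28, adjusted p = 0.564 by edgeR). The ratio of *Fbln5* to *Eln* per length was 0.345, 0.418 and 0.292 in AT2CTRL and 0.585, 0.784 and 0.661 in AT2CAB, so every AT2CAB library lay above every control. The microfibril-associated gene *Mfap4*, among the 5 most abundant members per length at 78.7 TPM, had 28.5, 42.8 and 36.6 CPM in AT2CTRL against 40.1, 75.3 and 90.3 CPM in AT2CAB. Its AT2CAB replicate 1 lay within the control range (log2 fold change 0.93, standard error 0.28, adjusted p = 0.352 by edgeR), and in the 4 libraries without Y-linked reads its log2 fold change was 0.58 (adjusted p = 0.396). *Mfap2* and *Mfap5* overlapped between groups, with log2 fold changes of 0.78 and -0.056, the latter of a sign that depended on the scaling. With Y-linked reads as a covariate *Fbln5*, *Fbln2* and *Fbn1* passed at adjusted p of 0.0311, 0.0397 and 0.0424 by edgeR. DESeq2 gave 0.000528, 0.00474 and 0.0911, and the adjusted p over the 16 alternatives ran from 0.000528 to 0.564, 0.00474 to 0.705 and 0.0424 to 0.781. In the 4 libraries without Y-linked reads the log2 fold changes of these 3 were 1.18 (adjusted p = 0.130), 1.22 (adjusted p = 0.174) and 0.66 (adjusted p = 0.130) by edgeR.

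The lysyl oxidases crosslink collagen and elastin. *Loxl1*, tied to elastic fibres, had 11.5, 14.2 and 13.6 CPM in AT2CTRL against 17.9, 20.6 and 17.4 CPM in AT2CAB, with no overlap between the groups (log2 fold change 0.51, standard error 0.14, adjusted p = 0.318 by edgeR). *Lox*, *Loxl2* and *Loxl3* overlapped, with log2 fold changes of -0.20, 0.69 and 0.25. In the 4 libraries without Y-linked reads that of *Loxl2* was 0.37 (adjusted p = 0.733) by edgeR. The exons of *Loxl3* share 13.2% of their bases with *Htra2*, and reads on such bases were left out of the counts.

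Among the matricellular proteins and glycoproteins, *Sparc* and *Mgp* were the most abundant per length and had log2 fold changes near 0. *Sparc*, a collagen-binding protein and the most abundant of all 45 genes at 355 TPM, had 439.8, 399 and 379.9 CPM in AT2CTRL against 380.1, 478 and 451 CPM in AT2CAB (log2 fold change 0.10, standard error 0.14, adjusted p = 0.842 by edgeR). *Mgp*, matrix Gla protein, an inhibitor of calcification, had 38.8, 37.4 and 34.9 CPM in AT2CTRL against 38.3, 38.7 and 41.6 CPM in AT2CAB at 142 TPM (log2 fold change 0.094, standard error 0.11, adjusted p = 0.808). In both the groups overlapped. The ratio of *Sparc* to *Col1a1* per length was 30.4, 22.3 and 21.9 in AT2CTRL and 15.3, 16.4 and 16.97 in AT2CAB, without overlap.

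Of the other 4, *Tnc*, *Sparcl1* and *Fn1* were higher in every AT2CAB library. They were 3 of the 6 matricellular and glycoprotein genes (50%, against 7.0% of all tested genes). *Tnc*, tenascin-C, induced in remodelling tissue, had 4.26, 3.60 and 4.34 CPM in AT2CTRL against 7.11, 8.65 and 6.12 CPM in AT2CAB (log2 fold change 0.84, standard error 0.23, adjusted p = 0.293 by edgeR). *Sparcl1*, a relative of *Sparc*, had 37.8, 64.7 and 53.2 CPM in AT2CTRL against 65.4, 84.0 and 72.5 CPM in AT2CAB (log2 fold change 0.51, standard error 0.20, adjusted p = 0.461). *Fn1*, fibronectin, on which collagen fibrils are assembled, had 22.1, 64.4 and 59.4 CPM in AT2CTRL against 92.2, 99.8 and 78.6 CPM in AT2CAB (log2 fold change 0.89, standard error 0.34, adjusted p = 0.461). Control replicate 1 stood far below the other 2 controls. *Fn1* passed in the 4 libraries without Y-linked reads (log2 fold change 0.67, adjusted p = 0.0312 by edgeR) and with Y-linked reads as a covariate (0.0434), with a range of 0.0312 to 0.781 over the 16 alternatives. *Postn*, periostin, overlapped between groups (log2 fold change 0.94).

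The 4 proteoglycans were measured at low levels. *Fmod*, fibromodulin, which binds collagen fibrils, had 1.26, 0.943 and 1.22 CPM in AT2CTRL against 2.20, 3.18 and 1.82 CPM in AT2CAB, without overlap (log2 fold change 1.07, standard error 0.42, adjusted p = 0.467 by edgeR). *Dcn*, decorin, a defining gene of fibroblasts, had 9.64, 4.97 and 4.45 CPM in AT2CTRL against 8.48, 6.25 and 9.63 CPM in AT2CAB. *Lum*, lumican, had 0.762, 0.471 and 0.533 CPM in AT2CTRL against 0.688, 0.310 and 0.944 CPM in AT2CAB. These groups overlapped, with log2 fold changes of 0.36 and 0.14, and *Lum* was above 3 counts in every library but under 1 CPM. *Vcan*, versican, also overlapped (0.55).

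Among the genes of collagen processing and turnover, *Mmp2* and *Timp3* were higher in every AT2CAB library. *Mmp2*, gelatinase A, had 4.93, 8.32 and 12.0 CPM in AT2CTRL against 15.5, 21.9 and 18.0 CPM in AT2CAB (log2 fold change 1.13, standard error 0.30, adjusted p = 0.273 by edgeR). *Timp3*, a metalloproteinase inhibitor that is bound to the matrix, had 185, 191 and 164 CPM in the AT2CTRL libraries and 270.0, 386 and 646 CPM in the AT2CAB libraries, with means of 180.1 ± 13.8 CPM (SD, n = 3) in AT2CTRL and 434 ± 192 CPM (SD, n = 3) in AT2CAB (log2 fold change 1.27, standard error 0.28, adjusted p = 0.190). The controls were tight, and the 3 AT2CAB libraries ranged widely, with the highest value in replicate 3, which carried Y-linked reads. The summed level of 11 BMP target genes had the same order, at 1044, 1357 and 2101 CPM in AT2CAB replicates 1, 2 and 3. In AT2CTRL that sum was 467 to 484 CPM. What the spread of *Timp3* followed was not tested. *Timp3* passed without AT2CAB replicate 1 (log2 fold change 1.54, adjusted p = 0.0436 by edgeR), with Y-linked reads as a covariate (1.19, adjusted p = 0.0259) and by DESeq2 (1.28, adjusted p = 0.000465), and in the 4 libraries without Y-linked reads it was 0.92 (adjusted p = 0.0655). Its adjusted p ran from 0.000465 to 0.580 over the 16 alternatives. *Mmp2* passed with that covariate (0.0427) and by DESeq2 (0.0315), with a range of 0.0315 to 0.781, and in the 4 libraries without Y-linked reads its log2 fold change was 0.92 (adjusted p = 0.149). The groups overlapped for *Mmp14*, the activator of gelatinase A (log2 fold change -0.26), *Timp2* (0.29) and *Pcolce*, an enhancer of procollagen processing (0.47). The ratio of *Timp3* to *Timp2* per length was 2.03, 1.505 and 1.51 in AT2CTRL and 2.01, 2.49 and 5.85 in AT2CAB, with overlap.

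The PDGF receptors, which mark the mesenchymal cells themselves, had overlapping groups. *Pdgfra* had 22.1, 39.6 and 32.8 CPM in the AT2CTRL libraries and 38.7, 48.0 and 31.8 CPM in the AT2CAB libraries (log2 fold change 0.33, standard error 0.23, adjusted p = 0.676 by edgeR). *Pdgfrb* had 10.6, 24.2 and 15.5 CPM in AT2CTRL against 20.7, 35.9 and 23.6 CPM in AT2CAB (log2 fold change 0.67, standard error 0.31, adjusted p = 0.540). For both, AT2CTRL replicate 1 was the lowest library and AT2CAB replicate 2 the highest.

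Summed levels of fibroblast markers were higher on average in AT2CAB. The summed level of the 7 fibroblast-defining members (*Pdgfra*, *Pdgfrb*, *Col1a1*, *Col1a2*, *Col3a1*, *Dcn* and *Lum*) was 134, 181 and 166 CPM in AT2CTRL and 223, 276 and 240.3 CPM in AT2CAB, a ratio of the means of 1.54 without overlap. In the 4 libraries without Y-linked reads that ratio was 1.44. This sum is not independent of the results above, because it holds *Col1a1*, *Col1a2* and *Col3a1*. The other 4 genes of the 7 each overlapped between groups. Of 14 further fibroblast markers, 13 were tested and *Twist2* was too low. None was called, and all 13 had a log2 fold change above 0, with a median of 0.47. Of them, 2 were higher without overlap (15.4%, against 7.0% of all tested genes). Their sum was 137, 223 and 156 CPM in AT2CTRL and 239.9, 293 and 217 CPM in AT2CAB, with overlap between the groups. The most abundant of them per length was *Inmt*, a gene of alveolar fibroblasts, at 73.8, 128 and 83.7 CPM in AT2CTRL against 144, 169.6 and 115 CPM in AT2CAB (log2 fold change 0.58, standard error 0.23, adjusted p = 0.465 by edgeR).

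Most markers of other stromal and blood cells also had log2 fold changes above 0. Sums were 59.7 to 76.0 CPM in AT2CTRL and 75.0 to 120.0 CPM in AT2CAB for 12 smooth muscle and pericyte markers, 18.2 to 38.3 CPM in AT2CTRL and 30.3 to 70.0 CPM in AT2CAB for 6 mesothelial markers, 497 to 832 CPM in AT2CTRL and 713 to 1092 CPM in AT2CAB for 12 endothelial markers and 75.8 to 95.6 CPM in AT2CTRL and 65.6 to 195 CPM in AT2CAB for 14 leukocyte markers. Of these, none was called, and 12 of 12, 6 of 6, 11 of 12 and 13 of 14 had log2 fold changes above 0. In each of the 4 sums the groups overlapped. For the smooth muscle and pericyte markers only AT2CTRL replicate 2 (76.0 CPM) and AT2CAB replicate 1 (75.0 CPM) overlapped. Higher without overlap were 33.3%, 0%, 8.33% and 7.14% of the markers of these 4 lists, in the same order, against 7.0% of all tested genes. The 8 AT1 markers summed to 2441 to 3277 CPM in AT2CTRL and 2614 to 3138 CPM in AT2CAB, with overlap. Of these 8, 6 had log2 fold changes above 0, with a median of 0.19. The 8 airway markers summed to 621 to 825 CPM in AT2CTRL and 598 to 816 CPM in AT2CAB, with *Krt5*, a basal cell keratin, at 0 in every library. Of the 7 airway markers tested, 4 had log2 fold changes above 0, with a median of 0.13. None of these AT1 and airway markers was called. Each member was also divided by the summed level of the 7 fibroblast-defining members in the same library. Of the 37 other members tested, 2 were then higher without overlap, 11 were lower and 24 overlapped. The 2 were *Fbln5* and, by a narrow gap, *Fbn1*. That sum was itself higher in AT2CAB, so a member at an unchanged level reads as lower. No share over all genes was computed for this ratio. How far RNA of these other cells contributed to the levels of the matrix genes was not tested.

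**Figure D5:**
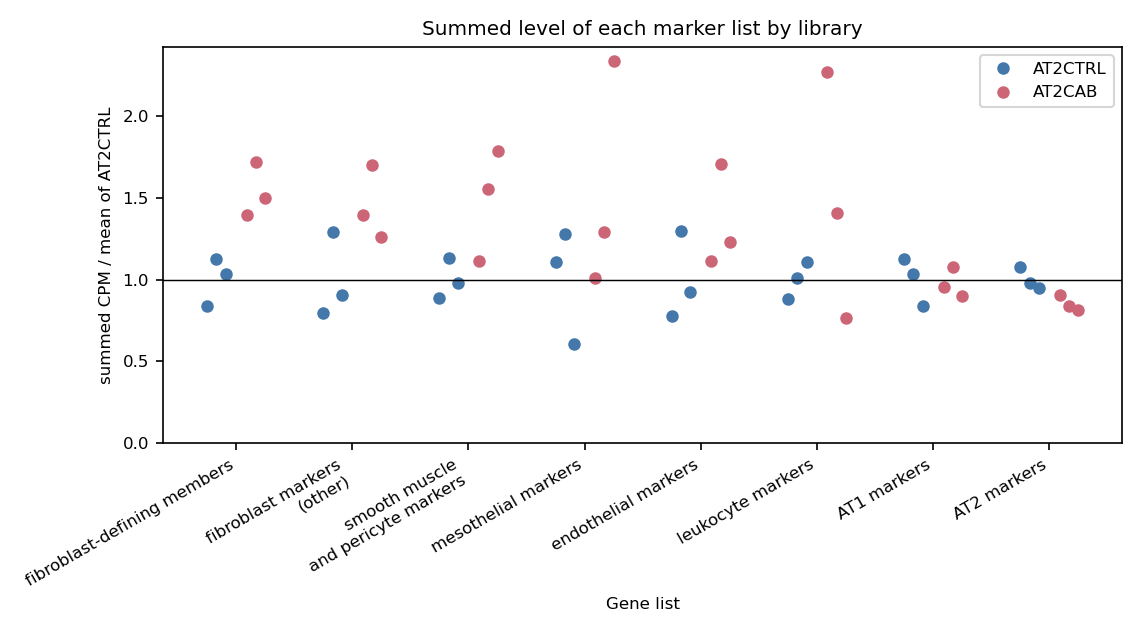
Summed CPM of each marker list in each library, divided by the AT2CTRL mean of that list (vertical axis from 0, line at 1), for AT2CTRL (blue) and AT2CAB (red) libraries. The sum of the 7 fibroblast-defining members, which holds the collagen I and III genes, is separated between groups. The sum of the other fibroblast markers overlaps. The smooth muscle and pericyte, endothelial, mesothelial and leukocyte sums are higher on average and overlap, and the AT2 sum is lower in AT2CAB.

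Other interstitial matrix genes, from a list of 26 not in the 45, gave 1 call. *Bgn*, biglycan, a proteoglycan that binds collagen, rose in AT2CAB, with 53.5, 72.8 and 62.7 CPM in AT2CTRL against 160.2, 279 and 341 CPM in AT2CAB (log2 fold change 2.05, standard error 0.27, adjusted p = 0.0263 by edgeR), and its groups were far apart. Of the 26, 7 were higher without overlap (26.9%, against 7.0% of all tested genes) and 1 was lower (3.85%, against 10.1%). The lower one, *Smoc2*, a matricellular calcium-binding protein, chosen after its values were seen, had 72.9, 34.4 and 37.0 CPM in AT2CTRL against 23.3, 13.3 and 9.86 CPM in AT2CAB (log2 fold change -1.64, standard error 0.38, adjusted p = 0.202). The most abundant per length was *Ltbp3*, which binds latent TGFβ, at 278 TPM, with 559, 544 and 509.6 CPM in AT2CTRL against 672, 801 and 769 CPM in AT2CAB (log2 fold change 0.48, standard error 0.13, adjusted p = 0.299).

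Genes of the machinery that modifies and processes collagen lay on both sides of 0. Of 21 genes, 20 were tested and *P4ha3* was too low. None was called, and their median log2 fold change was 0.051. Without overlap, 4 were higher and 3 lower (20% and 15%, against 7.0% and 10.1% of all tested genes). The most abundant per length were *Bmp1*, the procollagen C-proteinase (1947, 1246 and 1267 CPM in AT2CTRL against 1044, 1364 and 2058 CPM in AT2CAB), and *P4hb*, a subunit of prolyl 4-hydroxylase (714, 640.4 and 704 CPM in AT2CTRL against 639.5, 592 and 613 CPM in AT2CAB). *Bmp1* (chr14:70474555-70520260) lies close downstream of *Sftpc* (chr14:70520942-70524081) on the same strand. The AT2 marker *Sftpc* had a mean of 127608 TPM over the 6 libraries. Whether RNA from *Sftpc* added to the *Bmp1* counts was not tested. *P4ha1*, the catalytic subunit of prolyl 4-hydroxylase, had 225, 235 and 230.2 CPM in AT2CTRL against 174, 164 and 188 CPM in AT2CAB, lower in every AT2CAB library (log2 fold change -0.39, standard error 0.11, adjusted p = 0.318 by edgeR). *P3h2*, a prolyl 3-hydroxylase, had 11.1, 17.8 and 19.2 CPM in AT2CTRL against 29.2, 38.9 and 36.9 CPM in AT2CAB, higher in every AT2CAB library (log2 fold change 1.13, standard error 0.22, adjusted p = 0.127), and these 2 were chosen after their values were seen. Of 18 other matrix proteases and inhibitors, none was called, with a median of 0.33. Without overlap, 3 were higher and 0 lower (16.7% and 0%, against 7.0% and 10.1% of all tested genes). The most abundant per length were *Mmp15*, a membrane-anchored metalloproteinase (681, 1098 and 908 CPM in AT2CTRL against 918, 779 and 581 CPM in AT2CAB), and *Serpine2*, an inhibitor of serine proteases (98.95, 88.4 and 102 CPM in AT2CTRL against 86.7, 93.1 and 93.6 CPM in AT2CAB). Next per length was *Adamts1*, with 97.3, 222 and 312 CPM in AT2CTRL against 203, 180 and 102 CPM in AT2CAB (log2 fold change -0.38, standard error 0.40, adjusted p = 0.786 by edgeR). After it came *Adam10*, a sheddase of cell surface proteins, which did not pass. It had 61.8, 80.3 and 89.1 CPM in AT2CTRL against 139.6, 193 and 177 CPM in AT2CAB (log2 fold change 1.14, standard error 0.18, adjusted p = 0.0576).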

How the data were processed

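Poly(A) RNA of lineage-labeled AT2 cells sorted by FACS was sequenced from 3 AT2CTRL and 3 AT2CAB libraries. The authors trimmed the reads, aligned them to mm10 with HISAT2, removed duplicates and deposited raw counts per gene for 24421 genes, made with featureCounts 1.5.3 and not normalized. The counting ignored strand, and reads shared by overlapping genes were not counted. The header holds no option for read pairs, and even numbers made up 56.9% to 60.8% of counts from 1 to 20, so mates appear to have been counted separately, which overstates the precision of low counts. A level of 3 counts corresponded to 0.0976 to 0.138 CPM, which covers counting error only.

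The test was the quasi-likelihood test of edgeR 4.0.16 (R 4.3.3), run after TMM scaling and filterByExpr (minimum count 10). P-values were adjusted by Benjamini-Hochberg over all genes tested, and a call needed an adjusted p under 0.05 with over 2-fold change. The standard error is the size of the log2 fold change divided by the square root of F. Pairs of libraries of 1 group differed beyond sampling noise. Labels do not say whether replicates were separate mice. Within each group, any pair of libraries differed in age, in the presence of Y-linked reads or in both, so no pair came from a single mouse. The p-values measure the spread between these samples. An exact permutation test of 3 against 3 cannot go below p = 0.1, so none was used. TPM used the exon lengths of the deposited table. The scripts were tested on simulated counts.

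The genes and lists were chosen with earlier results of these data known, so their counts are descriptions. Values in every library are given for members whose groups did not overlap, the 7 fibroblast-defining members and the 5 most abundant per length, and from other lists for genes that passed and up to 4 of the most abundant. Alternatives were other scalings, no filter, DESeq2 1.42.0, limma-voom (limma 3.58.1), covariates for age and Y-linked reads, the replicate number as a block, 4 libraries without Y-linked reads, each library left out, and other thresholds.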

Additional observations from a re-analysis of the deposited data

How the results depend on the processing

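With no member called in either direction in the main test, the number called higher was 5 with Y-linked reads as a covariate, 4 by DESeq2, 21 at an unadjusted p under 0.05 without a fold threshold, and 0 to 1 when 1 library was left out (1 without AT2CAB replicate 1, *Timp3*). The number called lower was 1 with that covariate (*Col6a1*) and 2 at an unadjusted p. Over all tested genes, the 38 called higher became 108 with the covariate, 119 by DESeq2, 25 by limma-voom, 773 at an unadjusted p, and 6 to 59 with any 1 of the 6 libraries left out. The 2 called lower became 1 with upper-quartile scaling, 1 with library size only, 1 with age as a covariate, 1 by limma-voom, 5 without a filter, 34 with the Y-linked covariate, 8 in the 4 libraries without Y-linked reads, 25 by DESeq2, 844 at an unadjusted p and 0 to 4 with 1 library left out. The median log2 fold change of the members stayed between 0.49 and 0.71, and the ratio of summed fibroblast-defining levels between 1.42 and 1.68. Of 704 values of single members under the alternatives, 663 kept their direction and their side of the threshold, 25 newly passed it and 16 changed sign, none of which passed it. The sign changed for *Col5a3* (0.018 with upper-quartile scaling, 0.075 with library size only, and from -0.20 to 0.079 with 1 library left out), *Col18a1* (0.017 and 0.071 with those scalings, and from -0.24 to 0.21 with 1 left out), *Mfap5* (0.032 and 0.082, and from -0.38 to 0.15), *Lox* (from -0.42 to 0.19 with 1 left out) and *Lum* (from -0.21 to 0.49). The causes were not tested.

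A replicate block gave 5 calls of lower genes over all tested genes and no call of a member. Same-numbered libraries come from mice of different genotypes, and the correlations of their deviations were -0.32, 0.25 and -0.54 for replicates 1, 2 and 3. These 3 values, of both signs, cannot settle whether the numbers pair the samples. No pairing was used in the main test. The depth limits *Timp1* and *Lum*, which had 0 to 40 and 8 to 29 counts per library.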
